A study of Mus musculus with 8 samples.

Results

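Genes that mark the projection neurons of the striatum were followed in the lateral septum (LS) of restraint-stressed (RS) and naive mice. The set held 9 genes of striatal cyclic AMP signalling and identity, dopamine receptors left out: Ppp1r1b, Pde1b, Pde10a, Adora2a, Rgs9, Bcl11b, Adcy5, Rasd2 and Gng7. They were taken by symbol from 24946 gene symbols per library, after 26 symbols turned into dates were left out of the 24972 listed. All 9 were among the 14365 genes with a level of at least 1 transcript per 1000000 transcripts (TPM) in at least 2 of the 8 libraries. The mice were of the strain given as C57Bl6J. RS animals were held for 1 h in a flexible restraint cone, and naive animals were left in their own cages. By the labels the RS mice were killed 1 h after restraint, whereas the study's methods place the killing directly after the stress, and the sources do not resolve this. Each sample was a pool of the septa of 4 to 6 animals. PhosphoTrap was then carried out, in which 4 ug of antibody against the phosphorylated form of ribosomal protein S6 (pS6), found in active neurons, pulls down ribosomes with their RNA (IP), and RNA of the same lysate kept back beforehand serves as input. The libraries fell into 4 groups of 2 pools, RS IP, naive IP, RS input and naive input, where the labels speak of 3 pools per group. A pool of dissected septa holds every cell type of the piece of tissue, including any tissue taken along from its borders.

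Striatal projection neurons are GABAergic cells that read dopamine and adenosine through cyclic AMP. Receptors coupled to the stimulatory G protein of the striatum raise adenylyl cyclase activity, protein kinase A then phosphorylates DARPP-32, the product of Ppp1r1b, and phosphorylated DARPP-32 blocks protein phosphatase 1, while phosphodiesterases end the signal. The LS lies next to the striatum, shares with it an origin in the ventral forebrain, and also holds mainly GABAergic neurons, in part with the same genes in use.

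The 9 genes lie on 7 chromosomes of the mouse build GRCm38. With the gene bounds of GENCODE M21 these are Ppp1r1b at chr11:98348404-98357796, Rgs9 at chr11:109225355-109298129, Pde1b at chr15:103503034-103530052, Pde10a at chr17:8525372-8986648, Adora2a at chr10:75316877-75334784, Gng7 at chr10:80948624-81014945, Bcl11b at chr12:107910403-108003602, Adcy5 at chr16:35154877-35305738 and Rasd2 at chr8:75213944-75224113. Rgs9, Bcl11b and Gng7 are on the minus strand. Ppp1r1b shares exonic bases with the antisense gene 1700003D09Rik, and counting by strand is not given in the sources used here, so reads of the pair cannot be told apart. 1700003D09Rik stood at 17.4 and 21.0 TPM in RS IP, 21.6 and 22.0 TPM in naive IP, 27.4 and 27.5 TPM in RS input, and 22.7 and 20.1 TPM in naive input, far below Ppp1r1b.

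Start-site windows of 300 bases were held by RefSeq (GRCm38.p6) for 7 of the 9 genes, in 11 windows. Ppp1r1b and Adora2a had none. The windows of 3 genes are printed, because they span the range of base composition over the 11 windows. Gng7 had 2 windows, of which the one with more GC boxes was chosen. Each runs 5′ to 3′ on the strand of the gene, from 250 bases before the start to 50 after it, with the GC box GGGCGG, on either strand, in capitals. All motifs were searched on both strands. The printed Gng7 window is chr10:81014876-81015175 on the minus strand, the Adcy5 window chr16:35154614-35154913 on the plus strand, and the Bcl11b window chr12:108003365-108003664 on the minus strand.
Gng7: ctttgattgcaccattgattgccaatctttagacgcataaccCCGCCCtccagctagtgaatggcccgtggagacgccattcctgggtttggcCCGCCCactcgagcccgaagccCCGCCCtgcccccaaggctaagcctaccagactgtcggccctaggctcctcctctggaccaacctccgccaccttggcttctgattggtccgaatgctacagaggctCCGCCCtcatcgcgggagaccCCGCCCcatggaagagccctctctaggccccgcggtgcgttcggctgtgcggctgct
Adcy5: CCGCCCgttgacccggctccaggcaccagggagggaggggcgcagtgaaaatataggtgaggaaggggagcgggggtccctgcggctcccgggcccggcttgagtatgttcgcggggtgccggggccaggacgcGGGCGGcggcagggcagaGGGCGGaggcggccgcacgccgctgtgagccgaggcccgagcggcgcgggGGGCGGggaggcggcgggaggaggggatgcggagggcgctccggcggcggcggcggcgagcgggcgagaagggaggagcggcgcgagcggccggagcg
Bcl11b: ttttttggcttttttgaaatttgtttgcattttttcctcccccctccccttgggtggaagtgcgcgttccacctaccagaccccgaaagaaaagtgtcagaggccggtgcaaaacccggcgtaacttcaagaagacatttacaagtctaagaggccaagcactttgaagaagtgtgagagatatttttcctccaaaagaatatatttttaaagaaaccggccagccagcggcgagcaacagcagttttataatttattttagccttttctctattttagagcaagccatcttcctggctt
The printed Gng7 window held 5 GC boxes and 20 CpG at 63.7% GC, and the other, at chr10:81001316-81001615 on the minus strand, held 0 GC boxes and 6 CpG at 58% GC. The Adcy5 window held 4 GC boxes and 44 CpG at 79% GC. Bcl11b had no GC box, 9 CpG and 43% GC, with 1 match to the TATA box TATAAA, on the strand opposite to the gene, a motif of 3 of the 11 windows and of 13.6% of all windows. Over all 32851 windows of RefSeq, the median was 7 CpG and 52.7% GC. GGGCGG was present in 6 of the 11 windows of the 9 genes, against 35.7% of all windows. The palindromic cyclic AMP response element TGACGTCA was in 0 of the 11 windows, against 1.79% of all windows, and its core TGACG, which every TGACGTCA also holds, was in 1, the second Gng7 window, against 20.8%. The AP-1 site TGANTCA was in 0, against 7.81%. A match says only that the letters are there.

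As a check of the tissue, the LS and GABAergic neuron markers (10 of 10 measured) summed to 1514 and 1516 TPM in RS IP, 1386 and 1353 TPM in naive IP, 916 and 969 TPM in RS input, and 1067 and 1066 TPM in naive input, and no marker of any list was under 1 TPM in all libraries. Most of each sum came from Sst, Cartpt and Gad1, with 888, 262 and 227 TPM in the first RS IP pool. Crhr2 was at 4.45 to 7.49 TPM and Zic1 at 1.06 to 3.85 TPM over the 8 libraries. How much neighbouring striatum the pools held was not tested. TPM keep no read number, so the depth of a library is unknown. Each library listed 17316 to 17540 genes above 0, with symbols turned into dates included. TPM are also shares of 1 library, so they were compared under other scalings where this changed a call.

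Ppp1r1b was the most abundant of the 9 genes in every library and ranked between 28 and 53 among all genes. It was measured at 2100 and 2222 TPM in RS IP, 2203 and 2143 TPM in naive IP, 2375 and 2272 TPM in RS input, and 1697 and 1755 TPM in naive input. The naive input libraries were the lowest, and RS IP and naive IP overlapped. Together the 9 genes took 4207 and 4486 TPM in RS IP, 4487 and 4457 TPM in naive IP, 5190 and 4854 TPM in RS input, and 3765 and 3859 TPM in naive input. TPM are per transcript length, and levels were set beside each other between genes on that basis. Effects of length and GC content that TPM do not take out may remain in this order. Within each of the 4 groups the ranges of neighbouring genes did not overlap, so that the order was the same in both pools.

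Rasd2, which encodes the small GTPase Rhes that dampens cyclic AMP signalling in the striatum, took the second place in the IP with 953 and 1044 TPM in RS and 1030 and 1049 TPM in naive mice. In the input it took the third place, with 817 and 700.0 TPM in RS and 537 and 549 TPM in naive mice. Gng7, the gamma subunit of the striatal stimulatory G protein, changed places with it. Its levels were 775 and 800.5 TPM in RS IP, 851 and 873 TPM in naive IP, 1127 and 1058 TPM in RS input, and 892 and 910.2 TPM in naive input. Rasd2 thus stood above Gng7 in the captured RNA and below it in the whole lysate, in all pools.

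Pde1b, a phosphodiesterase switched on by calcium and calmodulin, held the fourth place in every group, with 268 and 302 TPM in RS IP, 273 and 255 TPM in naive IP, 631 and 615 TPM in RS input, and 463 and 464 TPM in naive input. Rgs9, whose striatal form speeds the shut-off of G proteins, gave 45.0 and 47.5 TPM in RS IP, 43.3 and 41.2 TPM in naive IP, 116 and 107 TPM in RS input, and 87.0 and 86.0 TPM in naive input. For both genes the IP libraries lay below all input libraries. Pde10a, the phosphodiesterase of the striatum that splits both cyclic AMP and cyclic GMP, was low, at 5.96 and 5.96 TPM in RS IP, 5.49 and 5.73 TPM in naive IP, 15.5 and 13.9 TPM in RS input, and 8.68 and 9.52 TPM in naive input. It was the lowest of the 9 genes except in RS input, where Bcl11b was lower.

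Adora2a, the adenosine receptor of the striatal neurons that project to the external pallidum, gave 30.8 and 30.8 TPM in RS IP, 49.1 and 58.5 TPM in naive IP, 75.1 and 55.5 TPM in RS input, and 54.3 and 60.5 TPM in naive input. RS IP stood apart below the other 3 groups, which overlapped. Adcy5, the main adenylyl cyclase of the striatum, was at 12.7 and 14.3 TPM in RS IP, 12.03 and 13.1 TPM in naive IP, 20.5 and 19.1 TPM in RS input, and 13.7 and 13.3 TPM in naive input. For this gene both RS input libraries were above all others. Bcl11b (Ctip2), a transcription factor that striatal projection neurons need to mature, gave 16.8 and 18.8 TPM in RS IP, 20.0 and 19.5 TPM in naive IP, 13.6 and 12.3 TPM in RS input, and 12.2 and 11.1 TPM in naive input. Its IP libraries were all above its input libraries.

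**Figure D1:**
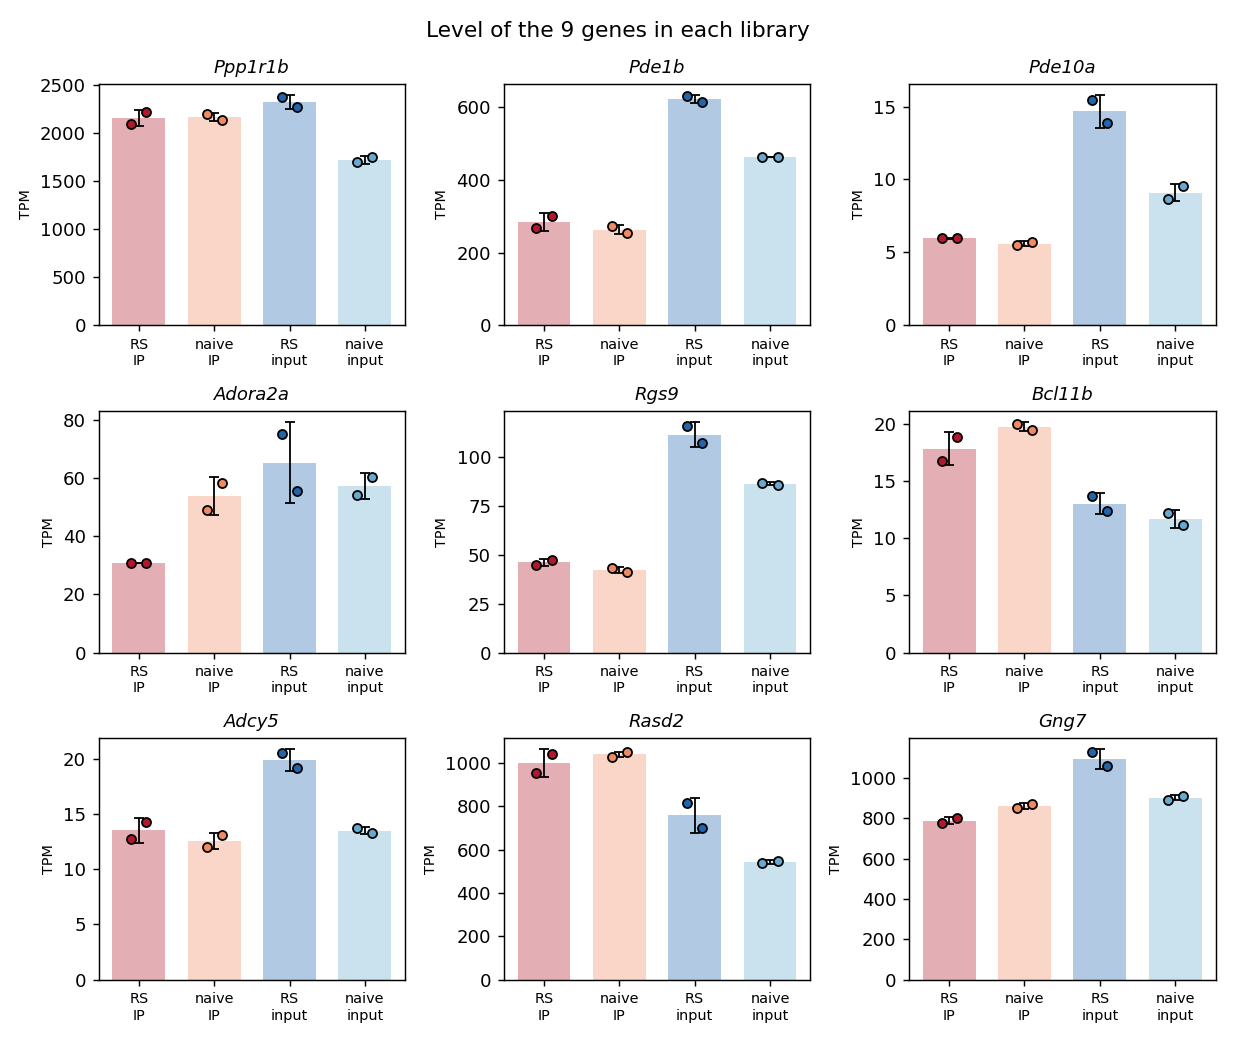
Level of each of the 9 genes in TPM (y axis, linear from 0) in RS IP, naive IP, RS input and naive input (x axis); points are the 2 pools, bars the mean and lines the SD. Ppp1r1b ranges between 1697 and 2375 TPM and Pde10a between 5.49 and 15.5 TPM, and for 8 of the 9 genes both RS input pools are above both naive input pools.

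The input comparison asked how the whole tissue RNA of RS mice differed from that of naive mice. Of the 9 genes, 7 were higher in RS input and 0 were lower, against 20.3% of all genes called higher and 8.21% called lower (limma, adjusted p under 0.05 over all genes kept). Their median change was 0.43 on the log2(TPM + 1) scale, against 0.13 for all genes. Both RS pools were above both naive pools for 8 genes, against 48.8% of all genes. Changes below are on this log2 scale, each with its standard error (SE) from limma, for n = 2 pools per group. Folds are taken from the same changes, so they are ratios of TPM + 1 and come out smaller than ratios of TPM at low levels.

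Ppp1r1b rose in the input by 0.43 (SE 0.04, adjusted p 0.0012 by limma), or 1.35-fold, to 2324 ± 72.9 TPM in RS mice, against 1726 ± 40.9 TPM in naive mice (SD). The phosphodiesterases rose as well, Pde1b by 0.43 (SE 0.06, adjusted p 0.00333) and Pde10a by 0.63 (SE 0.10, adjusted p 0.00463), which was the largest change of the 9, at 1.55-fold. Adcy5, on the synthetic side of cyclic AMP, rose 1.44-fold (adjusted p 0.00704). Rasd2 rose 1.39-fold (adjusted p 0.0039), Rgs9 1.29-fold (adjusted p 0.00679) and Gng7 1.21-fold (adjusted p 0.00409). Adora2a, with 0.17 (SE 0.14, adjusted p 0.4), and Bcl11b, with 0.14 (SE 0.10, adjusted p 0.313), did not pass the test. The pools of Adora2a overlapped between RS and naive input.

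Levels were also set against Ppp1r1b within each library. As a percent of Ppp1r1b, Pde1b (26.5% and 27.1% in RS input, against 27.3% and 26.4% in naive input) and Rasd2 (34.4% and 30.8% in RS input, against 31.7% and 31.3% in naive input) overlapped between the conditions. Gng7 was lower in both RS pools, at 47.4% and 46.6% in RS input, against 52.6% and 51.9% in naive input. So was Adora2a, at 3.16% and 2.44% in RS input, against 3.20% and 3.45% in naive input. Rgs9, at 4.89% and 4.72% in RS input, against 5.13% and 4.90% in naive input, was narrowly lower, and Bcl11b was lower as well. Pde10a, at 0.650% and 0.610% in RS input, against 0.512% and 0.543% in naive input, was higher in both RS pools, as was Adcy5. Ppp1r1b itself rose 1.35-fold, so a gene that rose less was lower by this measure. How many of all genes separate in this way was not counted.

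The values moved with the scaling. All genes had a median change of 0.13 in the input, and scaling the libraries by median of ratios, which sets that median to 0, left 6 of the 9 genes higher, against 7.73% of all genes, with Gng7 at 0.13 (adjusted p 0.063). Of the genes called in this comparison, 71.2% were higher as deposited, 38.3% after this scaling and 47.1% after the length and GC correction described next. A correction for transcript length and GC content left Ppp1r1b, Pde1b, Pde10a and Rasd2 higher, 4 of the 9 genes, against 6.72% of all genes. Ppp1r1b kept 0.28 under median of ratios (adjusted p 0.00505) and 0.35 under the correction (adjusted p 0.00148).

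Other cell markers differed between RS and naive input too, and their part in the change of the 9 genes was not tested. The oligodendrocyte markers (6 of 6 measured) summed to 8489 and 7868 TPM in RS input, against 6598 and 6507 TPM in naive input, and 6 of 6 were called higher as deposited and 4 under median of ratios. The pan-neuronal markers (7 of 7) summed to 5189 and 4975 TPM in RS input, against 4518 and 4469 TPM in naive input, with 4 called higher and 1 lower as deposited and 1 higher and 1 lower under median of ratios. The LS and GABAergic markers had lower sums in RS input, as given above, with 1 called higher and 3 lower of 10 as deposited, and 0 and 5 under median of ratios. Choroid plexus markers (4 of 4) summed to 274 and 330.0 TPM in RS input, against 14.9 and 16.0 TPM in naive input. Ttr made up most of the RS sums, with 259 and 309 TPM, and 3 of the 4 were called higher under either scaling. Astrocyte markers (5 of 5) summed to 468 and 433 TPM in RS input, against 334 and 326 TPM in naive input. Of them 3 were called higher under either scaling. Microglia markers (4 of 4) summed to 80.7 and 74.1 TPM in RS input, against 59.0 and 60.4 TPM in naive input. Of them 2 were called higher as deposited and 0 under median of ratios. P2ry12 was at 4.72 and 4.62 TPM in RS input, against 4.66 and 5.15 TPM in naive input. Glutamatergic neuron markers (5 of 5) summed to 216 and 207 TPM in RS input, against 159 and 161 TPM in naive input. Slc17a7 gave most of these sums, and 2 of the 5 were called higher as deposited and 1 under median of ratios. In bulk tissue, a change in the share of a cell type and a change in RNA per cell cannot be told apart. Symbols turned into dates by a spreadsheet carry the year 2019 in the naive tables and 2020 in the RS tables, so condition and any separate handling of the tables cannot be told apart.

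**Figure D2:**
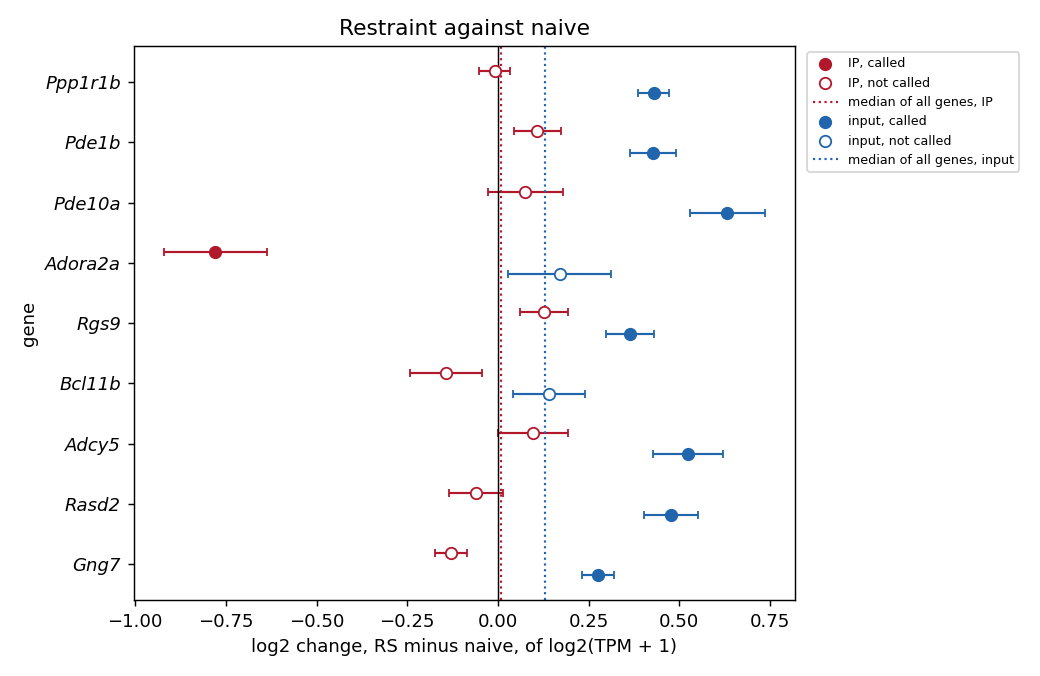
Change with restraint for each gene (y axis) as RS minus naive on the log2(TPM + 1) scale (x axis), in IP and in input; filled points passed the test, open points did not, lines are the SE and dotted lines the median of all genes. In the input all 9 genes lie above the median of all genes of 0.13 and 7 of them passed, whereas in the IP Adora2a alone passed, at −0.78.

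Among further striatal neuron genes, 14 of 25 rose in the input and 1 fell, against 20.3% and 8.21% of all genes. Their median was 0.31, against 0.13 for all genes. This list and the 2 below were also chosen with earlier results of these data known. They are read from the same libraries and are no separate evidence. Penk, the precursor of enkephalin, rose by 0.43 (adjusted p 0.000612), Arpp21 by 0.59 (adjusted p 0.00107), and Scn4b, a sodium channel subunit, by 0.65 (adjusted p 0.0019). Drd1, the D1 dopamine receptor, had 48.5 and 42.2 TPM in RS input, against 32.7 and 29.6 TPM in naive input (0.53, adjusted p 0.00594). Drd2 did not pass, at 6.51 and 6.22 TPM in RS input, against 5.21 and 5.28 TPM in naive input. Tac1, the precursor of substance P, was the gene that fell, by 0.26 (adjusted p 0.044). In the wider list of cyclic AMP, protein kinase A and phosphatase genes 18 of 32 rose and 1 fell, with a median of 0.28. Prkaca, a catalytic subunit of protein kinase A, rose by 0.64 (adjusted p 0.000844) and its regulatory partner Prkar1a by 0.46 (adjusted p 0.0015). Of 16 close relatives of the 9 genes 6 rose and 3 fell, and the relative of Rasd2, Rasd1, rose by 1.05 (adjusted p 0.002). Under median of ratios the counts were 9 higher and 1 lower of the 25 striatal genes, and 10 and 1 of the 32 cyclic AMP genes. Of the 16 relatives 2 were then higher and 5 lower. Of all 14365 genes tested, 2917 were higher and 1179 lower as deposited, and 1111 and 1789 under median of ratios. The balance of the relatives thus turned as that of all genes did.

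**Figure D3:**
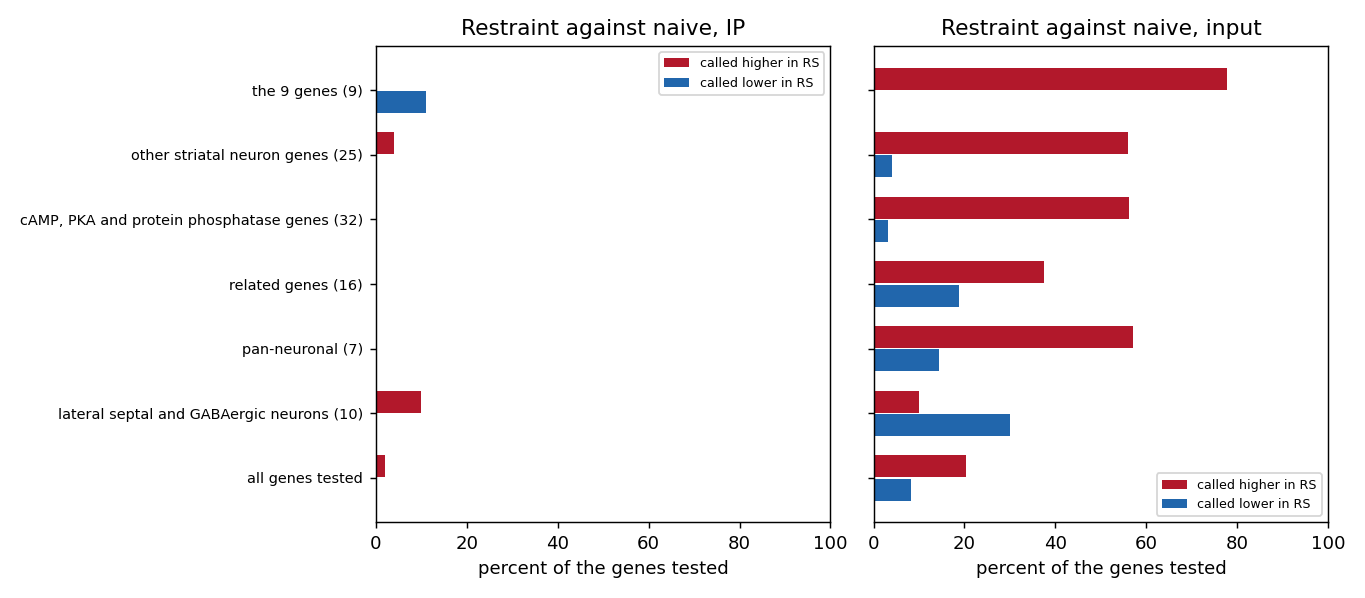
Percent of the genes tested (x axis, 0 to 100) in each list (y axis, number tested in brackets) called higher (red) or lower (blue) in RS than in naive, in the IP and in the input. In the input 7 of the 9 genes and 14 of 25 other striatal neuron genes are higher, against 20.3% of all genes, and in the IP 1 of the 9 genes is lower and 1 of the 25 is higher.

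The IP comparison asked which ribosome-bound RNAs differed between RS and naive mice. Of the 9 genes, 0 were higher and 1 was lower, against 1.98% of all genes called higher and 0.327% called lower. The median change of the 9 genes was −0.01, against 0.01 for all genes. Adora2a was the gene called, at 30.8 ± 0.0221 TPM in RS IP, against 53.8 ± 6.63 TPM in naive IP (SD), a change of −0.78 (SE 0.14, adjusted p 0.0344 by limma) or 1.72-fold lower. The call was lost without either RS IP pool (adjusted p 0.153 and 0.175), without either naive IP pool (0.0788 and 0.19) and without either naive input pool (0.0605 and 0.0606), while the change ran from −0.90 to −0.66 across these refits. Over all settings tried, its adjusted p ran from 0.0118 to 0.19. Of all genes called in the IP, 85.8% were higher in RS as deposited and 73.5% after the length and GC correction. As a percent of Ppp1r1b, Adora2a was 1.47% and 1.39% in RS IP, against 2.23% and 2.73% in naive IP.

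The other 8 genes ranged in the IP from −0.14 for Bcl11b to 0.13 for Rgs9, and none passed as deposited, although Gng7 did after the length and GC correction (−0.18, adjusted p 0.0339). Ppp1r1b changed by −0.01 (SE 0.04, adjusted p 0.955). Pools of RS and naive IP did not overlap for 5 of the 9 genes, Pde10a and Rgs9 higher and Adora2a, Bcl11b and Gng7 lower, against 46.2% of all genes. Among the further striatal genes, Drd2 and Penk had changes of 0.07 and 0.13 in the IP, and Drd1 and Tac1 of −0.17 and −0.22. None of them passed, and the median of the 25 further striatal genes was −0.01. Adora2b, a relative of Adora2a, was at 9.47 and 10.8 TPM in RS IP, against 5.52 and 6.91 TPM in naive IP, and did not pass. Only 1 of the 25 further striatal genes passed, Actn2, which crosslinks actin, with 0.63 (adjusted p 0.0388). Choroid plexus markers differed much more between these libraries, with sums of 2058 and 2069 TPM in RS IP, against 35.2 and 33.9 TPM in naive IP. Most of this was Ttr, at 2009 and 2029 TPM in RS IP, against 29.0 and 29.1 TPM in naive IP. All 4 choroid plexus markers were called higher. Astrocyte markers summed to 498 and 483 TPM in RS IP, against 361 and 383 TPM in naive IP, and 3 of 5 were called higher. The part of either list in the value of Adora2a was not tested.

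IP and input were then set against each other, which asks whether an RNA had a larger share of the captured RNA than of the input. TPM are shares, so the amount of an RNA on pS6 ribosomes is not given. In RS mice 2 of the 9 genes were higher in the IP and 6 lower, against 17.8% and 54.9% of all genes. The median of the 9 was −0.52, against −0.42 for all genes, and values are therefore also given less the all-gene median. Rgs9 fell by 1.25 in RS IP relative to RS input (SE 0.07, adjusted p 2.29e-06), Pde10a by 1.17 (SE 0.10, adjusted p 2.2e-05), Pde1b by 1.13 (SE 0.06, adjusted p 2.96e-06) and Adora2a by 1.04 (SE 0.14, adjusted p 0.00025). Less the median these were −0.83, −0.75, −0.71 and −0.62. Adcy5 fell by 0.52 and Gng7 by 0.47, close to the median gene. Bcl11b, with 0.43 (SE 0.10, adjusted p 0.0046), and Rasd2, with 0.40 (SE 0.07, adjusted p 0.00143), rose. Ppp1r1b had −0.11 (SE 0.04, adjusted p 0.0531), which did not pass. The oligodendrocyte markers were also lower in the IP, with sums of 2531 and 2605 TPM in RS IP, against 8489 and 7868 TPM in RS input, and 2442 and 2388 TPM in naive IP, against 6598 and 6507 TPM in naive input. The sums of the LS and GABAergic markers were higher in the IP, mostly through Sst, the somatostatin precursor, with 888 and 913 TPM in RS IP, against 416 and 469 TPM in RS input. Of the 10 markers 4 were called higher and 3 lower in RS IP, and 3 higher and 2 lower in naive IP, while under median of ratios 7 were higher and 1 lower in either condition. The part of either list in the values of the 9 genes was not tested.

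In naive mice 3 of the 9 genes were higher in the IP and 3 lower, against 17.4% and 49.2% of all genes, with a median of −0.10, against −0.32 for all genes. Rasd2 had the strongest excess, 0.94 (SE 0.07, adjusted p 2.42e-05) or 1.91-fold, followed by Bcl11b with 0.71 (SE 0.10, adjusted p 0.000373) and Ppp1r1b with 0.33 (SE 0.04, adjusted p 0.000242). Rgs9 fell by 1.02 (SE 0.07, adjusted p 1.07e-05), Pde1b by 0.81 (SE 0.06, adjusted p 2.34e-05) and Pde10a by 0.61 (SE 0.10, adjusted p 0.00105). Less the median, Rasd2 stood at 1.25, Bcl11b at 1.03, Ppp1r1b at 0.65 and Rgs9 at −0.70. Adora2a, Adcy5 and Gng7 did not pass, at −0.10, −0.10 and −0.06. Rgs9, Pde1b and Pde10a thus were below, and Rasd2 and Bcl11b above, the input in both conditions.

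**Figure D4:**
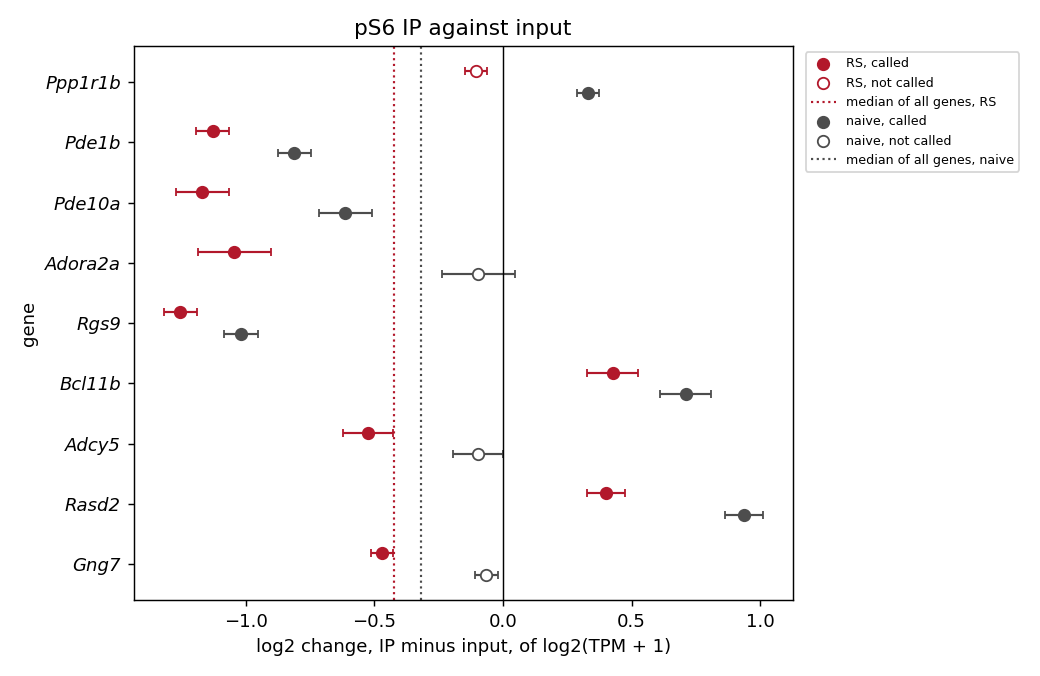
IP minus input for each gene (y axis) on the log2(TPM + 1) scale (x axis), in RS and in naive mice; filled points passed the test, open points did not, lines are the SE and dotted lines the median of all genes (−0.42 and −0.32). Rgs9 lies at −1.25 and −1.02 and Rasd2 at 0.40 and 0.94.

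Here the scaling decided several directions. Under median of ratios, which made 51.8% of the called genes higher in the IP, against 24.5% as deposited, Ppp1r1b was higher in RS IP by 0.41 (adjusted p 0.00012), Gng7 was at 0.04 and Adcy5 at −0.04 (adjusted p 0.705). In naive mice the share was 52.0%, against 26.2% as deposited, and there Gng7 (0.32) and Adcy5 (0.26) became higher and passed, while Adora2a turned to 0.28 without passing. The length and GC correction made 46.7% of the called genes higher in RS IP and 47% in naive IP, and Adcy5 was then higher in RS IP by 0.37 (adjusted p 0.00429). Rgs9, Pde1b, Rasd2 and Bcl11b kept direction and call under both scalings in both conditions, and Pde10a did so except under the length and GC correction in naive mice (0.09).

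**Figure D5:**
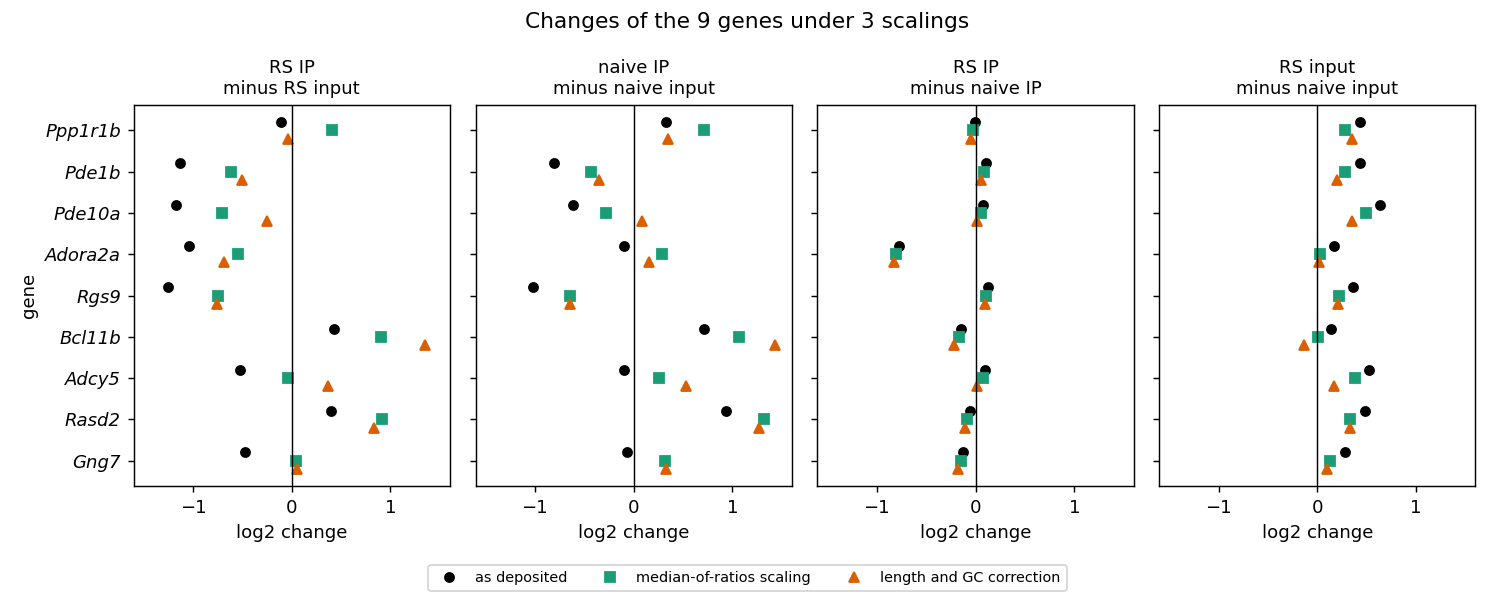
Log2 change of each gene (y axis) in 4 comparisons (panels, x axis) with values as deposited (black circles), under median-of-ratios scaling (green squares) and after length and GC correction (orange triangles). Ppp1r1b in RS IP minus RS input moves between −0.11 and 0.41, and Adora2a in RS IP minus naive IP stays between −0.83 and −0.78.

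Whether the ratio of IP to input changed with restraint was tested as the interaction. The change was below 0 for all 9 genes, against about 63.5% of all genes. Of the 9 genes 0 were called higher and 4 lower, against 3.29% and 3.46% of all genes. The median of the 9 genes was −0.43, against −0.11 for all genes. The 4 genes were Adora2a with −0.95 (SE 0.20, adjusted p 0.0376), Rasd2 with −0.54 (SE 0.10, adjusted p 0.0302), Ppp1r1b with −0.44 (SE 0.06, adjusted p 0.0169) and Gng7 with −0.41 (SE 0.06, adjusted p 0.0188). The same 4 were called lower under median of ratios (adjusted p 0.0344 to 0.0475), against 1.35% of all genes, although the share of higher genes among all calls was 48.8% as deposited and 78.3% under that scaling. After the length and GC correction this share was 64.6%, and Adora2a lost its call (−0.84, adjusted p 0.0682). For Ppp1r1b the IP differed by −0.01 and the input by 0.43 between RS and naive mice, and for Rasd2 by −0.06 and 0.48. For Adora2a the IP differed by −0.78 and the input by 0.17. The interaction reuses the values of the comparisons above and is no separate evidence. With each pool as a block, since IP and input of a pool come from 1 lysate, 0 of the 4 calls were kept, at adjusted p 0.0573 for Ppp1r1b and Adora2a, 0.0584 for Gng7 and 0.0782 for Rasd2. Leaving out any one of the IP or naive input libraries left 0 of the 4 calls (adjusted p 0.0515 to 0.129), and leaving out RS input pool 1 lost Adora2a (adjusted p 0.0581).

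Pde10a (−0.56, adjusted p 0.0617), Adcy5 (−0.43, adjusted p 0.0977), Pde1b (−0.32, adjusted p 0.0754), Bcl11b (−0.28, adjusted p 0.239) and Rgs9 (−0.24, adjusted p 0.156) did not pass the interaction. Of the 25 further striatal genes 8 were lower and 0 higher, against 3.46% and 3.29% of all genes. Among the lower ones were Drd1, with −0.70 (adjusted p 0.027), and Penk, with −0.30 (adjusted p 0.0188). Of the cyclic AMP genes 7 of 32 were lower and 1 higher. That gene was Gnas, a stimulatory G protein subunit, with 0.30 (adjusted p 0.0242). Under median of ratios 5 of the 25 striatal genes were lower and 0 higher, and 1 of the 32 cyclic AMP genes was lower and 1 higher. Of all 14365 genes tested, 194 were lower and 700 higher under that scaling. As deposited 970 of all genes were called, against 78 with each pool as a block. The lists were not counted with the block.

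Across the 8 libraries, as a description only, Pde1b followed Rgs9 with Pearson's r = 0.995 and Pde10a with r = 0.977, whereas Bcl11b followed Rasd2 with r = 0.942 and ran against Rgs9 with r = −0.886. All of these rest on 4 groups, with IP and input as the main contrast. Outside all lists, the genes most like the mean of the 9 in standardized log2 level were Rbfox1 (r = 0.986), Amigo1 (0.985), Jph3 (0.983), Magi2 (0.979) and Thrap3 (0.979), and those most like Ppp1r1b were Lsamp (0.979), Rap2b (0.963), Brinp1 (0.963), Rnf6 (0.963) and Fam205c (0.959), among 9719 genes with a mean of at least 5 TPM.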

How the data were processed

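Lateral septum libraries of RS and naive mice, pS6 IP and input, were analysed from the TPM the authors deposited, 1 column per library. The deposited names say FPKM, which the design assumed, but each column summed to 1000000 as TPM do. The labels name STAR and DESeq2 with mm10, the study's methods TopHat and Cufflinks, and which made the values is not stated. Date-turned symbols (26) were left out. Genes with at least 1 TPM in at least 2 of 8 libraries (14365) were kept. Log2(TPM + 1) was fitted with limma 3.58.1 in R 4.3.3 (group means of all 8 libraries, eBayes with trend, 4 residual and 3.92 prior degrees of freedom, two-sided), with Benjamini-Hochberg adjustment over all genes kept in each of 5 comparisons and a call at adjusted p under 0.05. The code was tested on simulated data. The 9 genes, the lists and the rule for named genes (all 9, up to 4 per list by moderated statistic, Drd1, Drd2, Penk and Tac1, and 1 gene not reported here) were chosen with earlier results of these data known. Actn2, Adora2b, Rasd1, Gnas and the like genes come from that rule. P-values set a change against a spread between pools that was estimated over all 4 groups and moderated by a trend over all genes. Calls in the IP therefore also depend on the input libraries. A group held 2 pools of 4 to 6 mice, and nothing else is known of their separation. IP and input of a pool come from 1 lysate by the labels, so the pool was tried as a block. Their pool differences correlated across genes with r of −0.0457 in RS and −0.0637 in naive mice. Other settings were a pseudocount of 0.1, no filter or one at 5 TPM, median-of-ratios scaling, a length and GC correction, no trend, 4 libraries alone and each library left out.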

Additional observations from a re-analysis of the deposited data

Results flagged for a closer look

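The ratio of IP to input differed between RS and naive mice by the interaction test of limma for 4 of the 9 genes, and this difference between conditions is what drew attention to them. Values are (RS IP minus RS input) minus (naive IP minus naive input) on the log2(TPM + 1) scale. Ppp1r1b had −0.44 (adjusted p 0.0169), Adora2a −0.95 (adjusted p 0.0376), Rasd2 −0.54 (adjusted p 0.0302) and Gng7 −0.41 (adjusted p 0.0188). With each pool as a block, 0 of the 4 calls were kept (adjusted p 0.0573 to 0.0782 by limma). Without the trend, or without any one IP or naive input library, 0 were kept as well. Adora2a was the gene of the 4 with a called difference between RS and naive IP, and Ppp1r1b, Rasd2 and Gng7 had called differences between RS and naive input. Groups of 2 pools were too small for a search for single pools far from the others.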

How the results depend on the processing

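Of the 756 values that alternatives gave for the 45 pairs of gene and comparison, 665 kept direction and side of the threshold, 61 lost the call, 6 gained it and 24 reversed. Depth is unknown, and 2 pools per group limit every test.

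For the interaction, 4 of the 9 genes and 970 of all genes were called. Without a filter 2 and 246 were, without the trend 0 and 35, with the replicate block 0 and 78, with the block and length and GC correction 0 and 26, and with the correction alone 378 of all genes. Leaving out 1 library gave 0 to 4 of the 9 and 24 to 1325 of all genes, with 0 of the 9 without any one IP or naive input library. The comparison on 4 libraries alone could not be run for the interaction, which needs all 8.

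For RS IP against naive IP, 1 of the 9 genes and 332 of all genes were called. Without a filter, without the trend, with the replicate block, and with the block and correction 0 of the 9 were, and with the correction 2. Of all genes 208 were called without the trend and 175 with 4 libraries alone. Leaving out 1 library gave 0 to 1 of the 9 and 103 to 362 of all genes. Block numbers here join pools of different mice, and the tables number RS pools 4 and 5, so they share only a number; pool differences correlated with r of −0.0531 in the IP and 0.159 in the input.

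For RS input against naive input, 7 of the 9 genes and 4096 of all genes were called. The correction left 4 and 2027, the block with the correction 2 and 1777, and leaving out 1 library 7 to 7 and 1744 to 3864. Without the correction, the block left the counts of the 9 in RS input against naive input (7) and in IP against input (8 in RS, 6 in naive mice) as they were. With the correction it called 6 of the 9 in RS IP against RS input, where the correction alone called 7, as Pde10a was lost (adjusted p 0.0717).

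Reversed values were as follows. In RS IP minus RS input, Ppp1r1b was 0.41 and Gng7 0.042 under median of ratios, and under the correction, with or without the block, Gng7 was 0.050 and Adcy5 0.37. In naive IP minus naive input under median of ratios, Adora2a was 0.28, Adcy5 0.26 and Gng7 0.32, and under the correction, with or without the block, Adora2a was 0.16, Adcy5 0.53, Gng7 0.32 and Pde10a 0.086. In RS input minus naive input under the correction, with or without the block, Bcl11b was −0.13. Single libraries left out gave −0.22 to 0.028 for Adora2a in naive IP minus naive input, −0.045 to 0.38 for Adora2a in RS input minus naive input, −0.049 to 0.032 for Ppp1r1b in RS IP minus naive IP and −0.13 to 0.0058 for Rasd2 there.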
